A study of Mus musculus with 14 samples.

Results

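The 40 genes described here carry out DNA replication and mitosis in dividing cells. They were chosen by name, 20 for replication and 20 for mitosis, from known function and with earlier results of these data known. All 40 were among the 12421 genes of the count table. The study sequenced RNA of mouse T-cell acute lymphoblastic leukaemia (T-ALL) from the VTL model, in which the oncogene is Lmo2, and its title concerns how loss of Ikaros relates to tumours that no longer need that oncogene. Each tumour carried a VTL number and a label for its Lmo2 status. The independent tumours VTL-33, VTL-44 and VTL-81 and the evolving tumours VTL-153, VTL-21 and VTL-25 each gave 1 library from mice fed doxycycline (Dox) at 600 mg/kg in food pellets and 1 from mice without Dox. The dependent tumours VTL-19 and VTL-24 entered with 1 library each, without Dox.

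What all groups shared was their passage through mice. Thymocytes first went into C57BL/6-Ly5.1;FVB F1 mice after sublethal irradiation, and stored leukaemia cells then went into C57BL/6-Rag1-/- recipients, which make no mature T or B cells of their own but keep myeloid and erythroid cells. Donor cells positive for both CD45.1 and CD45.2 were sorted from the spleen. Each label thus stands for a leukaemia after transplantation, and no label used here gives the direction of the Dox effect on Lmo2. No 2 replicates of a group shared a tumour number.

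Before a cell divides, it loads the MCM helicase at origins of replication with the help of Cdc6 and Cdt1, and Cdc45 and the GINS complex then turn the helicase on. Most genes of replication are transcribed from late G1 into S phase under E2F factors, and most genes of mitosis in G2 and M phase under the DREAM and MuvB complexes with B-Myb and FoxM1. T-ALL cells divide fast, and RNA levels of both groups are known to depend on the share of cells in each phase.

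The libraries held 18214415 to 24048281 counts, and levels are given as CPM, the counts relative to library size corrected by TMM factors. Lmo2 had 1.32, 4.09 and 8.46 CPM in the independent tumours VTL-33, VTL-44 and VTL-81 with Dox, against 600.3, 9.28 and 27.2 CPM without Dox. It had 0.405, 3.24 and 0.198 CPM in the evolving tumours VTL-153, VTL-21 and VTL-25 with Dox, against 708, 303 and 515 CPM without Dox, and 120.3 and 142 CPM in the dependent tumours. Lmo2 was thus lower with Dox in all 6 tumours. All 10 T cell markers were listed, with summed levels of 4433.8 to 7586.7 CPM in the 14 libraries. All 10 myeloid markers were listed too, with sums of 164 to 2008.0 CPM in independent tumours with Dox, 66.2 to 1434.6 CPM without, 19.3 to 172 CPM in evolving tumours with Dox, 16.4 to 214 CPM without, and 28.1 to 97.3 CPM in dependent tumours. VTL-81 with Dox and VTL-44 without Dox had the largest myeloid sums, and at most 1 of the 10 genes was at 0 in any library. Of 8 B cell markers 3 were listed, and their sum was 6399.5 CPM in VTL-21 with Dox, nearly all of it Ighm, against at most 806 CPM in any other library. Of 10 erythroid markers 8 were listed, with sums of 5.42 to 110.4 CPM in independent tumours with Dox, 1.52 to 26.7 CPM without, 0.455 to 138.7 CPM in evolving tumours with Dox, 3.1 to 8.94 CPM without, and 0.140 to 9.14 CPM in dependent tumours. Of 9 stromal markers 4 were listed, with sums of 364 to 902 CPM in independent tumours with Dox, 257 to 630 CPM without, 179.8 to 270.1 CPM in evolving tumours with Dox, 155 to 181 CPM without, and 142 to 164 CPM in dependent tumours.

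All 40 genes were well measured, with at least 699 counts in every library. On a scale of CPM per kilobase of exon, the 6 MCM subunits of the replicative helicase stood between 75.5 for Mcm2 and 166 for Mcm6. Pcna, the sliding clamp of DNA polymerases, was the highest replication gene at 247 CPM per kilobase. The factors that load and start the helicase, Cdc6, Cdt1, Cdc45 and Gins2, stood lower, at 12.6 to 51.0 CPM per kilobase. Among the genes that make nucleotides, the ribonucleotide reductase subunits Rrm2 and Rrm1 had 144 and 52.0 CPM per kilobase and thymidylate synthase Tyms had 23.8. This scale depends on the annotated exon bases, 2771 for Rrm2, 11012 for Rrm1 and 6089 for Tyms, taken over all transcripts of a gene. By mean CPM the order differed, with 573 for Rrm1, 400 for Rrm2 and 145 for Tyms. In mitosis, Top2a, which untangles sister DNA, had 155 CPM per kilobase and Mki67, the source of the Ki-67 antigen, had 147. Genes of mitotic entry, a set of Cdk1, its cyclins Ccna2, Ccnb1 and Ccnb2, and the kinases Plk1 and Aurka, ranged from 23.7 to 108 CPM per kilobase.

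**Figure D1:**
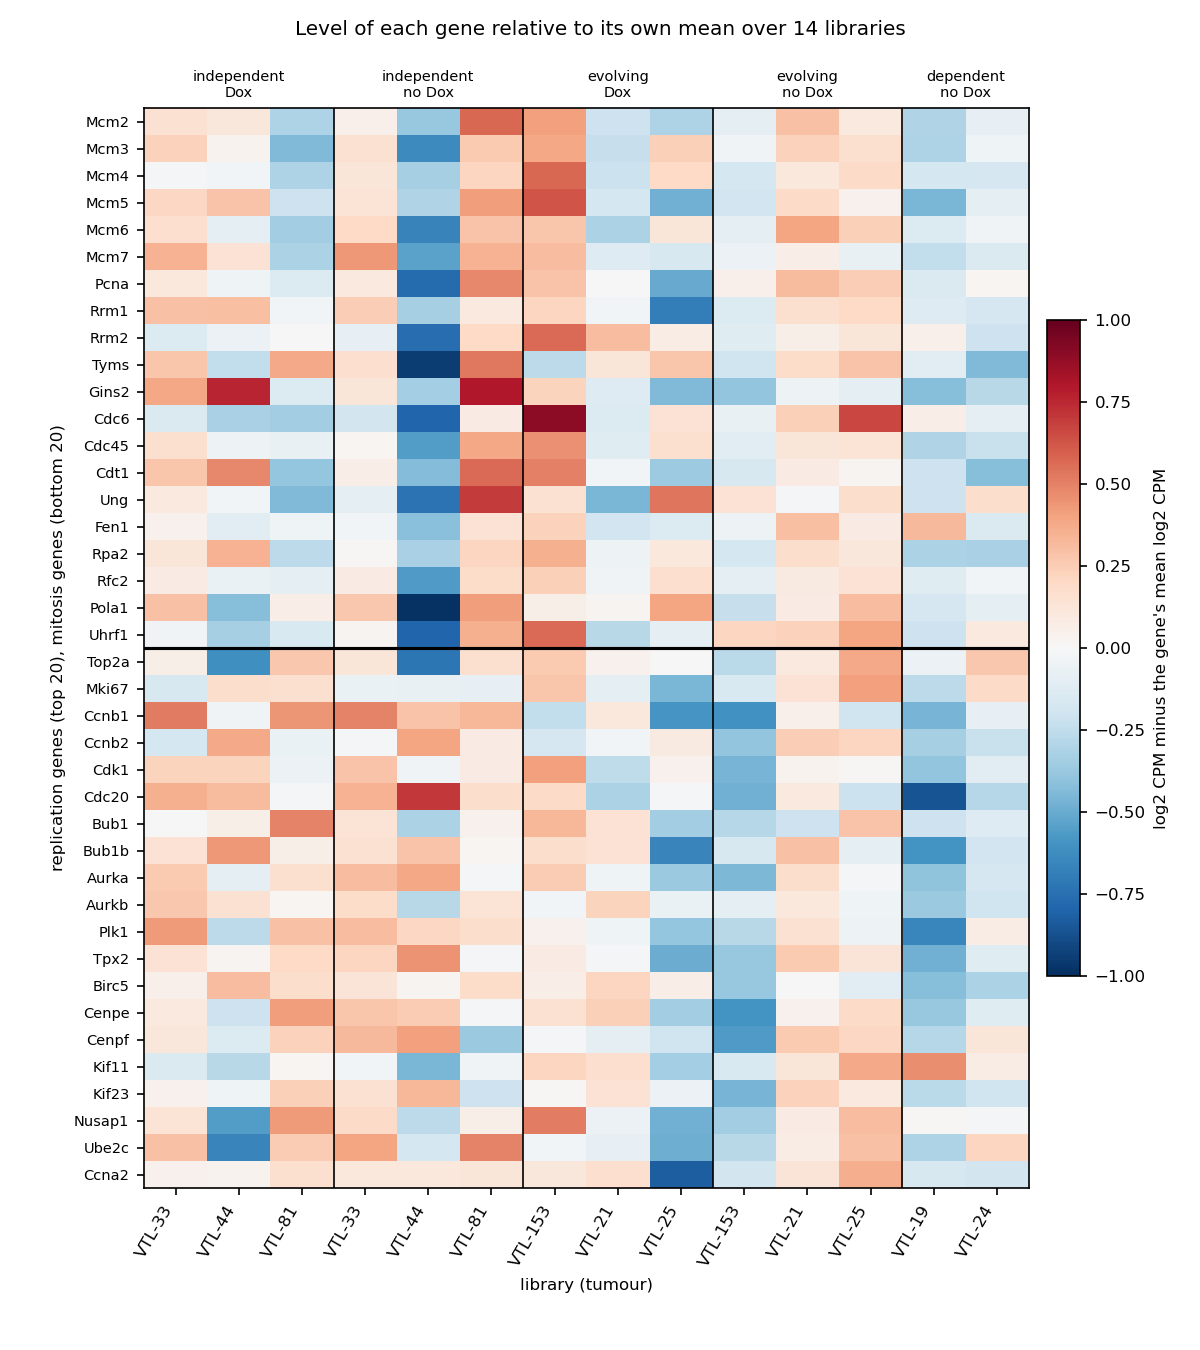
Each cell of the plot is the log2 CPM of a gene (20 replication genes above the thick line, 20 mitosis genes below) minus its own mean over 14 libraries, with libraries grouped by class and Dox. VTL-44 without Dox was the lowest library for 16 of the 20 replication genes, and VTL-153 with Dox the highest for 9.

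The stretches before the gene starts show which known cell cycle words the 2 groups carry. Sequences came from RefSeq (GRCm38.p6), which gave 250 bases before the start for 17 of the 20 replication genes and 17 of the 20 mitosis genes. Each was searched on both strands for E2F words (TTTCCCGC, TTTGGCGC, TTTCGCGC or TTTGCCGC), for the cell cycle homology region or CHR (TTTGAA or TTCGAA), and for the CCAAT box bound by NF-Y (CCAAT). Matches may overlap, and TTCGAA reads the same on both strands. The words of 2 replication and 2 mitosis genes are in capitals, either as listed or as their reverse complement, and each line runs 5′ to 3′ on the gene's strand. Cdc6, Ccnb1 and Cdc20 are shown because their levels varied most between libraries, and Mcm5 was chosen after the matches were counted, for its overlapping E2F words. The windows are chr11:98907901-98908150 on the plus strand for Cdc6, chr8:75109259-75109508 on the plus strand for Mcm5, chr13:100786487-100786736 on the minus strand for Ccnb1 and chr4:118437344-118437593 on the minus strand for Cdc20.
Cdc6: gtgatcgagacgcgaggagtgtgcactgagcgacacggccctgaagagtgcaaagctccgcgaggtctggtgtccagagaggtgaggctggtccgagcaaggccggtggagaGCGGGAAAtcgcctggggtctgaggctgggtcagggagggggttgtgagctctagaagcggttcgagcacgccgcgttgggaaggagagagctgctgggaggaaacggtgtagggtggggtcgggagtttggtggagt
Mcm5: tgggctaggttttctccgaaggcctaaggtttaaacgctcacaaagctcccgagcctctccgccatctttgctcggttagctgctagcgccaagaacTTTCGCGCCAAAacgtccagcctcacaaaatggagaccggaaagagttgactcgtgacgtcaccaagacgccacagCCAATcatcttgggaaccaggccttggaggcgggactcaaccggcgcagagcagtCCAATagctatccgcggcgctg
Ccnb1: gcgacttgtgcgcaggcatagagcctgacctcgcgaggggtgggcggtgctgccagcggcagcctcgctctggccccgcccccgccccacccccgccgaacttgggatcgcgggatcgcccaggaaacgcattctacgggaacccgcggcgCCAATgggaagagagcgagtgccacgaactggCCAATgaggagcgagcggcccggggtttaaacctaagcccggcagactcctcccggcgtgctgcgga
Cdc20: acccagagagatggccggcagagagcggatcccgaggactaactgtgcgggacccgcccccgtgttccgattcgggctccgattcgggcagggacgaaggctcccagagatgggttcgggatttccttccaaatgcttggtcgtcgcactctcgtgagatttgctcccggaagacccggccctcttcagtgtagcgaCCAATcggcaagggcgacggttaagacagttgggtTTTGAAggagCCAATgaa

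E2F words stood in 5 of 17 replication promoters (29.4%) and 1 of 17 mitosis promoters (5.88%), against 1.91% of all 27018 promoters of the table. The replication genes were Cdc6, Mcm5, Mcm6, Mcm7 and Pola1, and the mitosis gene was Cdk1. A CHR word together with a CCAAT box stood in 3 of 17 replication promoters (17.6%) and 8 of 17 mitosis promoters (47.1%), against 6.21% of all promoters. The 8 were Bub1b, Ccnb2, Cdc20, Cdk1, Kif11, Mki67, Top2a and Ube2c. The contrast was smaller in the further genes of these processes that are described below. There E2F words stood in 6 of 41 replication promoters (14.6%) and 5 of 48 mitosis promoters (10.4%). A CHR word with a CCAAT box stood in 4 of 41 (9.76%) and 13 of 48 (27.1%). In the printed windows Cdc6 held a single E2F word 131 to 138 bases before its RefSeq start and no CCAAT box. Cdc20 held a CHR word 13 to 18 bases before its RefSeq start between 2 CCAAT boxes. The GENCODE M21 annotation places some starts elsewhere. By it Cdc6 starts at 98907801, so its whole window lies inside the gene. Ccnb1 and Cdc20, on the minus strand, reach to 100786570 and 118437352 by it, so their windows overlap the genes in part. Ccnb1 held 2 CCAAT boxes and no CHR word in its window. GC content differed between the sets, with a median of 56.8% in replication, 61.6% in mitosis and 52.0% in all promoters. A match is a description of these letters and was not tied to any factor.

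Across the 14 libraries both groups of genes varied by a similar amount. The SD of log2 CPM ran from 0.20 (Rfc2) to 0.42 (Cdc6) among replication genes and from 0.19 (Aurkb) to 0.40 (Cdc20) among mitosis genes. Its median was 0.30 for replication and 0.28 for mitosis genes, against 0.37 over all genes and 0.27 over the 4761 genes with a mean CPM as high as the lowest member. The highest library of any replication gene held 3.22 times the CPM of the lowest (Cdc6), and of any mitosis gene 2.96 times (Cdc20).

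Among replication genes, Cdc6, which loads the MCM helicase, had 106.3, 94.2 and 92.4 CPM in independent tumours VTL-33, VTL-44 and VTL-81 with Dox, against 103.5, 68.0 and 125 CPM without Dox. In evolving tumours VTL-153, VTL-21 and VTL-25 it had 219, 107 and 130.1 CPM with Dox, against 111.5, 139 and 186 CPM without Dox, and in dependent tumours VTL-19 and VTL-24 it had 123 and 110.0 CPM. With Dox the independent tumours were all below the evolving ones, and in each class the libraries with and without Dox overlapped. Gins2, a GINS subunit, had 64.5, 83.9 and 45 CPM in independent tumours with Dox, against 53.6, 39.1 and 86.2 CPM without Dox. In evolving tumours it had 57.8, 45.1 and 36.3 CPM with Dox, against 37.5, 47.8 and 46.3 CPM without Dox, and in dependent tumours 36.7 and 40.7 CPM. The groups of Gins2 overlapped in every comparison, although VTL-19 lay below every independent and evolving library without Dox. Exons of Gse1 on the other strand cover 67.3% of the Gins2 exon bases and exons of Gm10143 cover 78.8% of those of Fen1, so reads of these pairs cannot be told apart if the counting ignored strand.

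The steadiest replication genes were Rfc2, a subunit of the clamp loader, and Fen1, the nuclease that trims Okazaki fragments. Rfc2 had 129.9, 117 and 115 CPM in independent tumours VTL-33, VTL-44 and VTL-81 with Dox, against 129.4, 82.8 and 139 CPM without Dox, and 145, 119.8 and 137 CPM in evolving tumours VTL-153, VTL-21 and VTL-25 with Dox, against 115, 131 and 135 CPM without Dox. Fen1 had 152, 136 and 143 CPM in independent tumours with Dox, against 144, 110.1 and 163 CPM without Dox, and 173, 129 and 134 CPM in evolving tumours with Dox, against 142, 182 and 156 CPM without Dox. For both, VTL-44 without Dox was the lowest of the 14 libraries, and the dependent tumours VTL-19 and VTL-24 stood at 113 and 120.4 CPM for Rfc2 and 184.5 and 133 CPM for Fen1. Pcna had 624, 565 and 527 CPM in independent tumours with Dox, against 621, 340.0 and 807 CPM without Dox, and 706, 580.0 and 409 CPM in evolving tumours with Dox, against 600.5, 724 and 687 CPM without Dox. In the dependent tumours it had 525 and 589 CPM, below every evolving library without Dox and inside the range of the independent ones.

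Among mitosis genes, Cdc20, which activates the anaphase-promoting complex, had 205, 199 and 157 CPM in independent tumours VTL-33, VTL-44 and VTL-81 with Dox, against 203, 260.4 and 181 CPM without Dox. In evolving tumours VTL-153, VTL-21 and VTL-25 it had 183, 129 and 158 CPM with Dox, against 114.5, 171 and 138 CPM without Dox, and in dependent tumours VTL-19 and VTL-24 it had 88.0 and 131 CPM. Without Dox every independent library lay above every evolving and every dependent one. Ccnb1, the B-type cyclin of Cdk1, had 138.5, 94.5 and 132 CPM in independent tumours with Dox, against 136, 118 and 122 CPM without Dox. In evolving tumours it had 81.6, 104.1 and 64.2 CPM with Dox, against 63.7, 100.3 and 84.4 CPM without Dox, and in dependent tumours 70.1 and 91.4 CPM. Without Dox its independent libraries also lay above all others, while with Dox VTL-44 lay below VTL-21.

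The steadiest mitosis genes were Aurkb, the kinase of the chromosomal passenger complex, and Kif23, a kinesin of cytokinesis. Aurkb had 169.5, 156 and 143 CPM in independent tumours VTL-33, VTL-44 and VTL-81 with Dox, against 160.0, 116 and 154 CPM without Dox, and 138, 164 and 134 CPM in evolving tumours VTL-153, VTL-21 and VTL-25 with Dox, against 131, 151 and 136 CPM without Dox. Kif23 had 173, 163 and 198 CPM in independent tumours with Dox, against 187, 211 and 145.5 CPM without Dox, and 169, 186 and 162 CPM in evolving tumours with Dox, against 121.5, 198 and 179 CPM without Dox. The dependent tumours stood at 109 and 122 CPM for Aurkb, below every evolving library without Dox, and at 139 and 146 CPM for Kif23, inside the range of the evolving libraries. Top2a had 1423.4, 894 and 1645 CPM in independent tumours with Dox, against 1491, 829 and 1530.5 CPM without Dox. It had 1635, 1407 and 1365 CPM in evolving tumours with Dox, against 1133, 1463 and 1779 CPM without Dox, and 1316 and 1650.4 CPM in dependent tumours. Both libraries of VTL-44 were the lowest of the 14 for Top2a, and the groups overlapped.

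The levels of the 2 groups of genes did not always move together from library to library. The 20 replication genes summed to between 4488.7 CPM in VTL-44 without Dox and 8693.7 CPM in VTL-153 with Dox. The 20 mitosis genes summed to between 5318.8 CPM in VTL-25 with Dox and 7721 CPM in VTL-25 without Dox. Mitosis genes over replication genes gave a ratio of 0.791 in VTL-81 without Dox and 1.39 in VTL-44 without Dox, the extremes of the 14 libraries, and 0.845 to 1.28 in the other 12. By group, the replication sum was 6636 ± 805 CPM in independent tumours with Dox (SD, n = 3), against 6715 ± 2007.5 CPM without Dox (n = 3). It was 6997 ± 1471 CPM in evolving tumours with Dox (n = 3), against 7142.5 ± 734 CPM without Dox (n = 3), and 6005 ± 274 CPM in dependent tumours (n = 2). The mitosis sum was 6751 ± 602 CPM in independent tumours with Dox (SD, n = 3), against 6636 ± 397 CPM without Dox (n = 3). It was 6419.8 ± 1038 CPM in evolving tumours with Dox (n = 3), against 6709.5 ± 1242 CPM without Dox (n = 3), and 6162 ± 799 CPM in dependent tumours (n = 2). In each class the means with and without Dox differed by less than either SD, for both sums. Both dependent libraries had replication sums below all 3 evolving libraries without Dox. VTL-44 without Dox had none of 20 replication genes above their mean over libraries, but 12 of 20 mitosis genes. In these bulk samples, fewer cells in a phase of the cycle and less RNA per cell cannot be told apart.

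**Figure D2:**
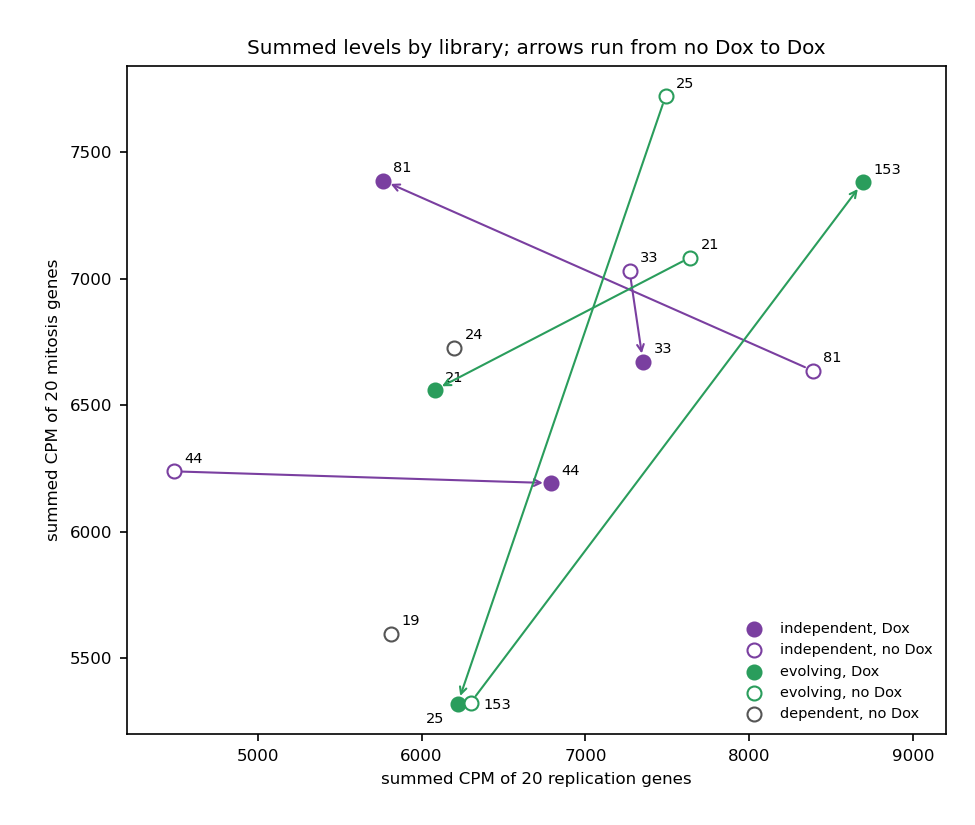
Summed CPM of the 20 replication genes (horizontal) and the 20 mitosis genes (vertical) in each of 14 libraries, labelled by tumour number. Arrows join the libraries of a tumour and point to the Dox library: VTL-153 and VTL-25 ran along both axes in opposite directions, VTL-44 and VTL-81 mostly along the horizontal axis in opposite directions, and VTL-33 hardly moved.

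The first comparison the design implies is with against without Dox within each tumour. For replication genes the direction differed between tumours of the same class. In independent tumours, all 20 were higher with Dox in VTL-44, with a median log2 change of 0.61, and all 20 were lower with Dox in VTL-81, with a median of -0.51. VTL-33 had 15 of 20 higher with a median of 0.06. In evolving tumours, VTL-153 had 19 of 20 higher (median 0.39), VTL-21 had 1 of 20 higher (median -0.28) and VTL-25 had 6 of 20 higher (median -0.10). Of all 12421 genes, 46.4% to 54.9% were higher with Dox in the 6 tumours. These are single pairs of libraries with no replicate, so they describe those libraries.

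Within the replication genes, the 6 MCM subunits had the same sign in 4 tumours. They were higher with Dox by log2 0.31 to 0.68 in VTL-44 and 0.37 to 0.82 in VTL-153, and lower in VTL-81 (-0.88 to -0.52) and VTL-21 (-0.71 to -0.20). Loading and activation factors spread further in VTL-44 and VTL-81: Gins2 stood at log2 1.10 in VTL-44 and -0.94 in VTL-81, and Cdt1 at 0.91 and -0.95. In VTL-21 these factors spread less than the MCM subunits, at -0.38 to -0.083. Cdc6 had the largest value of VTL-153, at 0.97. The nucleotide genes Rrm1, Rrm2 and Tyms kept to 0.63 to 0.71 in VTL-44, but only -0.19 to -0.13 in VTL-81. In VTL-25, Rrm1 stood at -0.89 and Pcna at -0.75, while Ung, which excises uracil from DNA, stood at 0.36. Ung was also the replication gene with the most negative value of VTL-81, at -1.14.

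Mitosis genes followed the replication genes in some tumours only. With Dox, all 20 were higher in VTL-153, with a median log2 change of 0.45, and 3 of 20 were higher in VTL-25, with a median of -0.40. VTL-44, where every replication gene was higher, had 8 of 20 mitosis genes higher with a median of -0.18. VTL-81, where every replication gene was lower, had 14 of 20 mitosis genes higher with a median of 0.11. VTL-33 had 4 of 20 higher (median -0.07) and VTL-21 had 7 of 20 (median -0.14).

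By role, the spindle genes Kif11, Kif23, Nusap1 and Tpx2 stood at log2 0.37 to 0.86 in VTL-153 and at -0.79 to -0.15 in VTL-25. Cenpf and Cenpe, large kinetochore proteins, stood at -0.55 and -0.46 in VTL-44 and at 0.60 and 0.43 in VTL-81, the opposite signs to the replication genes of those tumours. The checkpoint and passenger genes Bub1, Bub1b, Aurkb and Birc5 did not share this. They stood at 0.15 to 0.43 in VTL-44, the same sign as its replication genes. In VTL-81 Bub1 and Bub1b stood at 0.45 and 0.042, and Aurkb and Birc5 at -0.11 and -0.0099. Cdc20 and Ube2c, which work with the anaphase-promoting complex, were lower with Dox in both VTL-44 and VTL-81, between -0.48 and -0.20. Ccna2, the cyclin of S and G2 phase, had the most negative value of VTL-25, at -1.19. Cdk1, the kinase that drives mitotic entry, had the largest mitosis value of VTL-153, at 0.87.

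**Figure D3:**
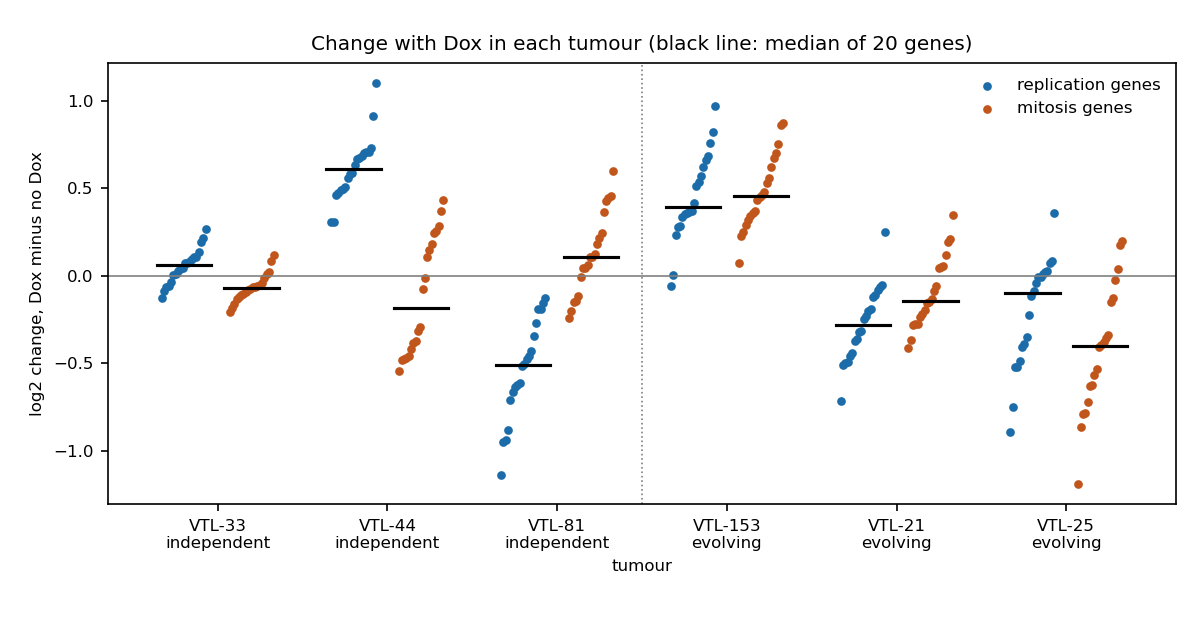
Log2 change in CPM (Dox minus no Dox) of every replication gene (blue) and mitosis gene (orange) in each of 6 tumours, sorted within a tumour, with the median as a black line. All 20 replication genes lie above 0 in VTL-44 and below 0 in VTL-81, while the mitosis genes of both tumours straddle 0.

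Markers of other cells also differed between the libraries of a tumour. The myeloid sum was 787 CPM in VTL-44 with Dox against 1434.6 CPM without, and 2008.0 CPM in VTL-81 with Dox against 177 CPM without. It was 164 CPM in VTL-33 with Dox against 66.2 CPM without. In VTL-44 and VTL-81 the library with more myeloid RNA had less RNA of replication genes, while VTL-33 had more myeloid RNA with Dox and 15 of 20 replication genes higher. In evolving tumours the myeloid sum was 19.3 CPM in VTL-153 with Dox against 160.0 CPM without. It was 172 CPM in VTL-21 with Dox against 16.4 CPM without, and 24.03 CPM in VTL-25 with Dox against 214 CPM without. In VTL-153 and VTL-21 the library with more myeloid RNA also had the lower replication sum. VTL-25 had both less myeloid RNA and the lower replication sum with Dox, at 6220 CPM against 7489 CPM without. Of the defining genes, Mpo and Elane, proteins of neutrophil granules, stood at 194 and 71.8 CPM in VTL-81 with Dox. The B cell marker sum of VTL-21 was 6399.5 CPM with Dox against 253 CPM without. The erythroid sum was 110.4 CPM in VTL-44 with Dox against 26.7 CPM without, 25.04 CPM in VTL-81 with Dox against 5.22 CPM without, and 138.7 CPM in VTL-21 with Dox against 5.66 CPM without. The erythroid sum was also higher with Dox in VTL-33, at 5.42 CPM against 1.52 CPM without. It was lower with Dox in VTL-153 and VTL-25, at 0.455 and 7.98 CPM against 3.1 and 8.94 CPM without. Among evolving tumours only VTL-21 thus had a higher erythroid sum with Dox. All 8 erythroid genes had a positive fitted change with Dox in both classes, and edgeR called 0 of them. The stromal sum was 886 CPM in VTL-33 with Dox against 257 CPM without, and 902 CPM in VTL-81 with Dox against 630 CPM without. Most of these sums with Dox was Pdgfrb, at 636 and 584 CPM, against 116.5 and 377 CPM without. Col1a2 and Pecam1 were also higher with Dox in both tumours. Col1a1 was lower with Dox in both, at 0.397 and 10.1 CPM against 2.61 and 15.4 CPM without. In VTL-44 the stromal sum was lower with Dox, at 364 CPM against 431 CPM without. For evolving tumours VTL-153, VTL-21 and VTL-25 it was 179.8, 197 and 270.1 CPM with Dox, against 155, 181 and 178 CPM without. Most of the stromal sum in each evolving and dependent library was Pecam1, at 124.7 to 162.7 CPM. Of the 4 stromal genes edgeR called 1 for Dox in evolving tumours, the collagen gene Col1a2 (edgeR adjusted p = 0.0247). Col1a2 had 16.1, 0.197 and 1.04 CPM in VTL-153, VTL-21 and VTL-25 with Dox, against 0.15, 0 and 0.0801 CPM without Dox. The other collagen gene listed, Col1a1, was lower with Dox in these tumours, at 0.506, 3.88 and 0.297 CPM against 1.5, 5.53 and 1.56 CPM without. Over evolving tumours 2 of the 4 stromal genes had a positive and 2 a negative fitted change. The cells had been sorted as positive for both CD45.1 and CD45.2, and the purity of that sort was not examined. The part of any myeloid, B, erythroid or stromal cells in the result was not tested.

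Over tumours, no member passed the test for Dox in either class. In independent tumours edgeR called 0 of 20 replication and 0 of 20 mitosis genes, against 0% of all 12360 genes tested (0 genes). In evolving tumours it also called 0 of 20 and 0 of 20, against 2.13% of all genes (263 genes). DESeq2 and limma voom called 0 of either group in both classes, where DESeq2 called 0% of all genes in independent and 10.6% in evolving tumours. No member had an unadjusted p under 0.05 by any of these tools, against 0.704% of all genes by edgeR in independent and 16.7% in evolving tumours. The median log2 change was 0.050 for replication and -0.022 for mitosis genes in independent tumours, with 0.0064 for all genes. In evolving tumours it was 0.014 for replication and -0.0086 for mitosis genes, with -0.0022 for all genes. These medians hide the spread between tumours: without VTL-44 the replication median of independent tumours was -0.28 and without VTL-81 it was 0.32. Without VTL-153 the evolving medians were -0.22 for replication and -0.26 for mitosis genes, and without VTL-25 the mitosis median was 0.19.

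The intervals concern the mean change of a class over its 3 tumours, are not adjusted for the number of genes, and do not bound the change in a single tumour. In single tumours Ccna2 (-1.19 in VTL-25), Ung (-1.14 in VTL-81) and Gins2 (1.10 in VTL-44) passed a 2-fold change. In evolving tumours the 95% interval of every member lay within a 2-fold change, with outer bounds of log2 -0.96 (Pcna) and 0.97 (Gins2) for replication and -0.93 (Ccna2) and 0.78 (Cenpe) for mitosis genes. In independent tumours the same held for 19 of 20 replication and 20 of 20 mitosis genes, and Gins2 reached 1.08. The smallest p in evolving tumours belonged to Birc5, the survivin subunit of the chromosomal passenger complex, at log2 0.28 (SE 0.13, edgeR adjusted p = 0.363). Its change was 0.18 without VTL-153. Birc5 was also the only member higher with Dox in all 3 evolving tumours, by 0.45 in VTL-153, 0.21 in VTL-21 and 0.17 in VTL-25, where 17.2% of all genes were higher in all 3. Tyms was the only member lower in all 3, at -0.059, -0.063 and -0.0059, against 17.7% of all genes. In independent tumours no member was higher in all 3, against 8.74% of all genes, and Ccnb2 and Ube2c were lower in all 3, against 8.4% of all genes. Ube2c, the ubiquitin-conjugating enzyme of mitotic exit, had a fitted log2 change of -0.28 (SE 0.20, edgeR adjusted p = 1).

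**Figure D4:**
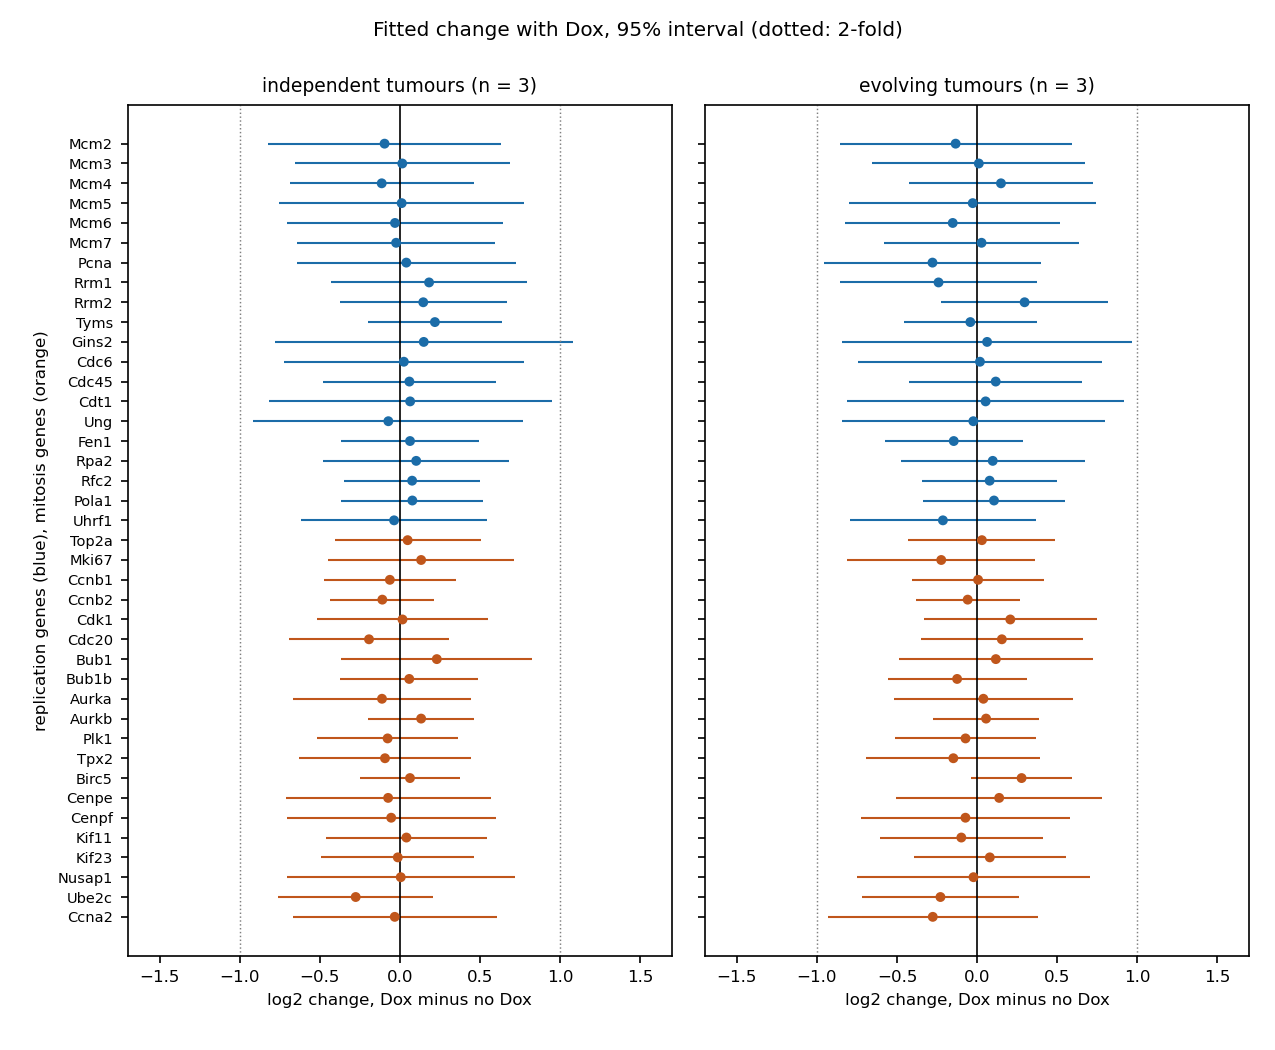
Fitted log2 change with Dox for each member in independent (left) and evolving (right) tumours, as a point with its 95% interval, from 3 tumours a class. Every interval includes 0, and apart from Gins2 in independent tumours each stays between the dotted lines at a 2-fold change.

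Whether the 2 classes responded differently to Dox was tested as the difference of their changes. edgeR called 0 of 20 replication and 0 of 20 mitosis genes, against 0.121% of all genes (15 genes), with no member at an unadjusted p under 0.05, against 9.53% of all genes. DESeq2 and limma voom called 0 members too, where DESeq2 called 4.44% of all genes. The median difference, independent minus evolving, was log2 0.0097 for replication and 0.0078 for mitosis genes. The intervals were wider here, and stayed within 2-fold for 10 of 20 replication and 15 of 20 mitosis genes. Rrm1, the large subunit of ribonucleotide reductase, had the smallest p among replication genes, at 0.42 (SE 0.37, edgeR adjusted p = 0.838), and stood at 0.088 without VTL-25. Cdc20 had the smallest p among mitosis genes, at -0.35 (SE 0.30, edgeR adjusted p = 0.838), and stood at -0.080 without VTL-153.

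The classes were next compared without Dox. For independent minus dependent tumours, 17 of 20 mitosis genes had a positive log2 difference, with a median of 0.35, against 0.031 over all genes, and none passed the test. For 11 of 20 mitosis genes every independent library lay above both dependent ones, against 14.4% of all genes. Here and in the class comparisons below, the genes of a group were read in the same few libraries and are not independent readings. The summed mitosis levels overlapped, at 6238 to 7032 CPM in independent and 5597 to 6727 CPM in dependent tumours without Dox. The 11 genes were the entry genes Aurka, Ccna2, Ccnb1, Ccnb2, Cdk1 and Plk1, the checkpoint and passenger genes Birc5 and Bub1b, the kinetochore motor Cenpe, the spindle factor Tpx2 and Cdc20. Kif11, the motor that separates the spindle poles, was the only member with every independent library below both dependent ones, against 13.2% of all genes. Top2a and Mki67, the most abundant mitosis genes, also had negative differences, at -0.21 and -0.058. Of the replication genes 16 of 20 had a positive difference with a median of 0.16, and none had groups that did not overlap. That median was -0.021 without VTL-81 and 0.37 without VTL-44.

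Across all genes edgeR called 0 of 20 replication and 0 of 20 mitosis genes, against 0.0972% of all 12348 genes (12 genes). At an unadjusted p under 0.05 there were 0 replication and 5 mitosis genes, which were Aurka, Birc5, Bub1b, Ccnb1 and Cdc20, against 13.2% of all genes (1631 genes). The 95% intervals of these 5 mitosis genes excluded 0, and those of the other 15 did not. DESeq2 called 0 replication genes and 1 of 20 mitosis genes, Cdc20, against 6.41% of all genes (791 genes), so the share of mitosis genes it called was no higher than that of all genes. limma voom called 0 of both. Cdc20 stood at a log2 difference of 0.97 (SE 0.26, edgeR adjusted p = 0.193; DESeq2 adjusted p = 0.0146), with a 95% interval of 0.35 to 1.59. Its adjusted p over all alternatives ran from 0.0146 to 0.538. Birc5 stood at 0.49 (SE 0.15, edgeR adjusted p = 0.237). Of the replication genes Gins2 had the smallest p, at 0.62 (SE 0.32, edgeR adjusted p = 0.46), or 0.26 without VTL-81. The intervals stayed within 2-fold for 16 of 20 replication and 14 of 20 mitosis genes.

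**Figure D5:**
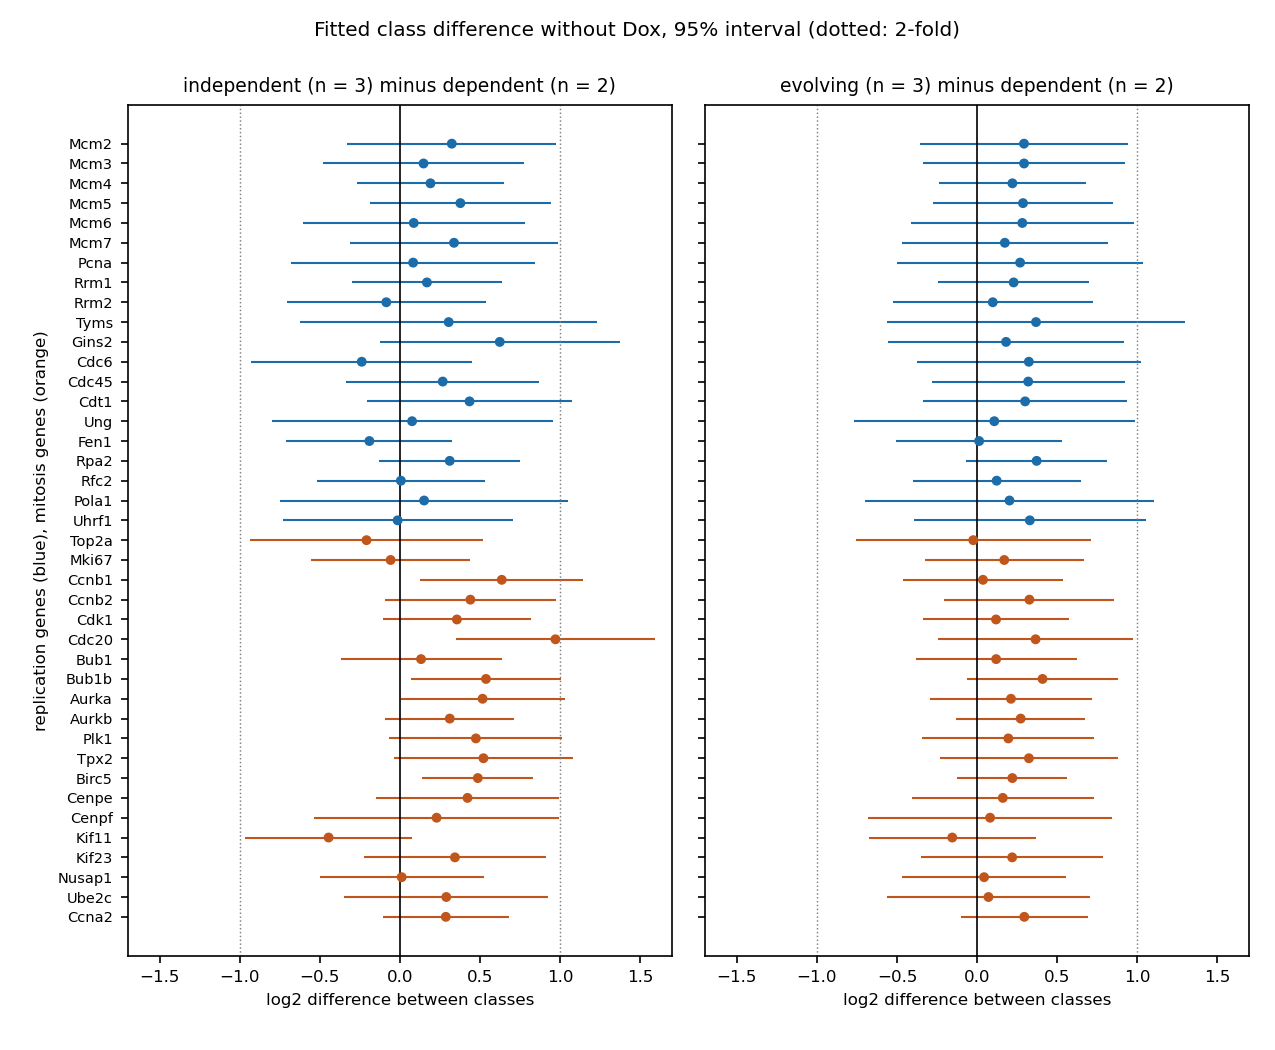
Fitted log2 difference between classes without Dox for each member, as a point with its 95% interval, for 3 independent minus 2 dependent tumours (left) and 3 evolving minus 2 dependent tumours (right). Most points lie right of 0, and Cdc20 on the left reaches farthest, at 0.97.

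Evolving tumours without Dox were set against the same 2 dependent tumours. All 20 replication genes had a positive difference, from 0.012 to 0.37 on the log2 scale with a median of 0.27, against 0.013 over all genes. For 7 of 20 every evolving library lay above both dependent ones, against 9.93% of all genes. These were Mcm3, Mcm7, Cdc45, Cdt1, Pcna, Rpa2, which binds single-stranded DNA, and Uhrf1, which brings DNA methylation to the new strand. Of the mitosis genes 18 of 20 had a positive difference with a median of 0.18. Aurkb and Bub1b, 2 of 20, had every evolving library above both dependent ones, a share close to the 9.93% of all genes. No member had every evolving library below both dependent ones, against 9.5% of all genes. The replication median ran from 0.18 without VTL-21 to 0.35 without VTL-153, and the mitosis median from 0.071 without VTL-19 to 0.30 without VTL-153. edgeR called 0 of 20 replication and 0 of 20 mitosis genes, against 0% of all genes, and no member had an unadjusted p under 0.05, against 3.39% of all genes (419 genes). DESeq2 and limma voom called 0 members, where DESeq2 called 0.518% of all genes. Bub1b, a kinase of the spindle checkpoint, stood at 0.41 (SE 0.20, edgeR adjusted p = 1) and Rpa2 at 0.37 (SE 0.19, edgeR adjusted p = 1). Bub1b stood at 0.22 without VTL-19 and 0.63 without VTL-24.

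Independent tumours were also set against evolving tumours without Dox. Of the replication genes 5 of 20 had a positive difference with a median of -0.059, and of the mitosis genes 15 of 20 with a median of 0.14, against 0.023 over all genes. Birc5, Ccnb1, Cdc20 and Plk1, the last a kinase of mitotic entry, were higher in every independent library than in every evolving one, against 11.4% of all genes. No replication gene had groups that did not overlap, and no member was lower in every independent library, against 12.1% of all genes. edgeR called 0 of 20 replication and 0 of 20 mitosis genes, against 0.259% of all genes (32 genes), and DESeq2 and limma voom called 0 members, where DESeq2 called 8.65% of all genes. At an unadjusted p under 0.05 there were 2 mitosis genes, against 16.4% of all genes, and these were Ccnb1 at 0.60 (SE 0.19, edgeR adjusted p = 0.197) and Cdc20 at 0.61 (SE 0.23, edgeR adjusted p = 0.256). Cdc6 stood at -0.56 (SE 0.26, edgeR adjusted p = 0.349), the smallest p of the replication genes, or -0.35 without VTL-25 or without VTL-44. Both medians rested on single tumours. Without VTL-44 the replication median was 0.11 and without VTL-81 it was -0.29, while the mitosis median was 0.0088 without VTL-153 and 0.28 without VTL-21.

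The same classes were compared in the Dox libraries. Independent against evolving tumours gave a positive difference for 7 of 20 replication genes, with a median of -0.096, and for 17 of 20 mitosis genes, with a median of 0.12, against -0.0076 over all genes. Both medians had the sign they had without Dox, but single genes did not all keep theirs: Rrm1 stood at 0.31 with Dox and -0.059 without, and Mki67 at 0.12 with Dox and -0.23 without. These libraries come from the same 6 tumours and are no independent sample of tumours. Cdc6 and Rrm2 were lower in every independent library than in every evolving one, against 4.79% of all genes, and no member was higher in every independent library, against 4.87% of all genes. edgeR called 0 of 20 replication and 0 of 20 mitosis genes, against 0% of all 12093 genes, with no member at an unadjusted p under 0.05, against 4.74% of all genes. DESeq2 called 0 members, against 0.777% of all genes, and had 2 replication genes at an unadjusted p under 0.05, against 6.33% of all genes, while limma voom called 0. Cdc6 stood at -0.65 (SE 0.29, edgeR adjusted p = 0.974), or -0.26 without VTL-153, and Rrm2 at -0.40 (SE 0.18, edgeR adjusted p = 0.974). Ccnb1 stood at 0.54 (SE 0.24, edgeR adjusted p = 0.974). Without VTL-153 the replication median was 0.028 and the mitosis median 0.30, and without VTL-25 the mitosis median was 0.014.

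Other genes of the same processes were read for comparison, as 50 further replication genes, 57 further mitosis genes and 20 transcription regulators of the cell cycle such as E2F and MuvB members. edgeR and limma voom called 0 of each list in every comparison, with at most 13 genes of a list at an unadjusted p under 0.05, while DESeq2 called at most 3 of the 57 further mitosis genes, 1 of the 50 further replication genes and 1 of the 20 regulators in any comparison. In VTL-44, 48 of the 50 further replication genes were higher with Dox, and in VTL-81 6 of 50 were. Of the 57 further mitosis genes, 35 were higher with Dox in VTL-44 and 37 in VTL-81. In VTL-153, 43 of 50 and 53 of 57 were higher. Without Dox, the median difference of the further mitosis genes was log2 0.20 for independent minus dependent and 0.18 for evolving minus dependent tumours, with 42 and 46 of 57 positive. For independent minus dependent tumours 13 of the 57 had an unadjusted p under 0.05 by edgeR, a larger share than the 13.2% of all genes. For evolving minus dependent tumours 1 of the 57 had one, a smaller share than the 3.39% of all genes. These genes were read in the same libraries, and the lists were not tested as sets.

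Genes of these lists called by DESeq2 alone are named here after their values were seen. DESeq2 called 10.6% of all genes for Dox in evolving tumours, 6.41% for independent against dependent tumours, 4.44% for the difference of Dox responses and 8.65% for independent against evolving tumours without Dox. In these 4 comparisons the share of each further list that it called was below that of all genes, so the genes named are no result about the lists. For Dox in evolving tumours they were Dut, which clears dUTP, E2f4, a repressive E2F, and Cenpn, a centromere protein, which had a log2 change of -0.99 and an adjusted p of 0.205 by edgeR and 0.0421 by DESeq2. Dut stood at log2 0.89 (SE 0.21) with an adjusted p of 0.0878 by edgeR and 0.00127 by DESeq2. E2f4 stood at -0.60 (SE 0.13) with an adjusted p of 0.0713 by edgeR and 0.0012 by DESeq2. For independent against dependent tumours without Dox they were Timeless, a part of the fork protection complex, at 0.76, Knstrn at 0.71, Nek2, a centrosome kinase, at 0.78 and Anln, the anillin of the cleavage furrow, at -0.71. Their adjusted p by edgeR ran from 0.157 to 0.208. For the difference of Dox responses the only such gene was Dut, and for independent against evolving tumours without Dox they were Anln at -0.92 and Cenpn at -0.78. Timeless alone had an edgeR adjusted p under the threshold when a tumour was left out, 0.0485 without VTL-44.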

How the data were processed

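Per the submitters' processing notes, STAR 2.5.2b, featureCounts and the build mm10 were used to align reads and count them per gene. The annotation and the strand setting are not given in the sources used here. The values used were raw counts per gene that the authors deposited without normalisation, 1 column per library, with totals of 18214415 to 24048281. The table's other 42 columns of values per sample were not used. Libraries were made with an NEBNext Ultra II kit, per the labels' protocols.

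The test was edgeR 4.0.16 (R 4.3.3) by robust quasi-likelihood, after TMM scaling and the default filter at a minimum count of 10. All genes tested in a comparison entered the Benjamini-Hochberg adjustment, with a threshold of 0.05. For Dox, 1 model of the 12 libraries from the 6 tumours with both libraries held a block per tumour and separate Dox terms for the classes. Class comparisons used either the 8 no-Dox libraries or the 6 Dox libraries. Log2 CPM for per-tumour changes used a prior count of 2. The SE is the size of the log2 change over the square root of its F statistic, and 95% intervals follow from it. Gene positions and exon lengths came from GENCODE M21 (mm10). An exon length counts each base that is exonic in any transcript of the gene once. The scripts were tested on simulated data.

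Same-numbered libraries come from the same tumour. Their deviations from the group means correlated across genes at 0.716, 0.645 and 0.563 in VTL-33, VTL-44 and VTL-81, and at 0.188, 0.151 and 0.0166 in VTL-153, VTL-21 and VTL-25.

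The members and all lists were chosen with earlier results of these data known. Values per library are given for the 2 replication and 2 mitosis genes with the largest and with the smallest SD of log2 CPM and for the most abundant of each group per exon length. As alternatives, DESeq2 1.42.0, RLE size factors, voom of limma 3.58.1, no filter, a minimum count of 50, no replicate block, each class fitted alone and the omission of each tumour were run. Omitting both VTL-44 and VTL-81 was chosen after seeing the data.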

Additional observations from a re-analysis of the deposited data

How the results depend on the processing

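Of 182 alternative counts of called members, 181 were 0, and the exception was 1 mitosis gene called by DESeq2 for independent against dependent tumours without Dox (Cdc20). Of 315 alternatives for single genes, 302 kept their direction and their side of the threshold. The change of Tyms with Dox in independent tumours was the only one to turn, to -0.024 without VTL-44, and ran up to 0.41 without VTL-81. With no replicate block, edgeR called 0 replication and 0 mitosis genes in the 3 Dox comparisons, and the median replication change was -0.0069 in independent and 0.045 in evolving tumours; over all genes that fit called 73 for Dox in evolving tumours, against 263 with the block. Without VTL-44 and VTL-81 together, 0 members were called and the median change in VTL-33 alone was 0.059 for replication and -0.071 for mitosis genes, with the lone tumour, like a lone dependent tumour elsewhere, assumed to vary as the others do. Leaving out each tumour in turn called 0 members. It moved the median Dox change of replication genes between -0.28 and 0.32 in independent and between -0.22 and 0.12 in evolving tumours, and that of mitosis genes between -0.12 and 0.042 in independent and between -0.26 and 0.19 in evolving tumours. The median mitosis difference of independent minus dependent tumours ran from 0.26 without VTL-19 to 0.50 without VTL-24. Counts over all genes depended on the tool: for Dox in evolving tumours edgeR called 263 genes, voom 439 and DESeq2 1314, for independent against dependent tumours 12, 0 and 791, and for independent against evolving tumours without Dox 32, 7 and 1068. For the difference of Dox responses these were 15, 67 and 549, for evolving against dependent tumours 0, 0 and 64, and for independent against evolving tumours with Dox 0, 1 and 94. Fitting evolving tumours alone with the block called 21 genes for Dox. Each member had at least 699 counts in every library, and what greater depth would change was not tested. Each tumour had a single library per condition, so its own change with Dox has no replicate check.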
